A study of Homo sapiens with 3 samples.

Results

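The let-7 guide strands are a family of closely related mature microRNAs. They were taken here as every probe that carried 1 of 9 names, which were hsa-let-7a-5p, hsa-let-7b-5p, hsa-let-7c, hsa-let-7d-5p, hsa-let-7e-5p, hsa-let-7f-5p, hsa-let-7g-5p, hsa-let-7i-5p and hsa-miR-98-5p (written without the species prefix from here on). They made up 9 of the 2019 microRNA probes on each array. All 9 were detected on all 3 arrays, as were 347 of the 2019 probes.

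The arrays came from MCF12A, an immortalized, non-tumorigenic human mammary epithelial cell line grown as a monolayer. The labels gave 3 groups of 1 array each: an unexposed control, a 4-week exposure to ethanol, and an equally long exposure to acetaldehyde, the first oxidation product of ethanol. For ethanol the labels give 2.5 mM in one place and 2.5% in another, and for acetaldehyde 1 mM and 1%, so the compounds differ in dose on either reading. The protocol also mentions a clone picked in soft agar for 1 ethanol experiment, and the labels do not say whether any array here came from it. All groups shared a medium with cholera toxin, insulin, hydrocortisone, epidermal growth factor and horse serum. Because no group had a replicate, no p-value could be computed, and both exposures are read against a single control array. Each probe was printed as 4 spots per array, and every SD below is over these spot positions, so it covers the printing and reading of spots and not the variation between cultures.

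let-7 microRNAs are cut from hairpin precursors by Drosha and Dicer, and LIN28 proteins block this step in stem and embryonic cells. The guide strand is loaded into Argonaute and pairs with messenger RNAs mainly through its seed, the bases near its 5′ end. let-7 levels are known to rise as cells differentiate, and the family restrains RAS, MYC and HMGA2 and is low in many breast tumours.

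The sequences are shown because they set how far the 9 probes can be told apart. Each is the target sequence in the deposited files, 5′ to 3′, with the seed (bases 2 to 8) in capitals, and each was identical to the RefSeq mature microRNA of that name (GRCh38.p14), where let-7c is listed as let-7c-5p.
let-7a-5p: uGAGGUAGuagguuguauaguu
let-7c: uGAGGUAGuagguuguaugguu
let-7e-5p: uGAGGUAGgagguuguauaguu
let-7f-5p: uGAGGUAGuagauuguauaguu
let-7b-5p: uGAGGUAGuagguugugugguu
let-7d-5p: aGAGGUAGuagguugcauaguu
let-7g-5p: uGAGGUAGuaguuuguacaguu
let-7i-5p: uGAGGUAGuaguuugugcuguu
miR-98-5p: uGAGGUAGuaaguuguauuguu

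All 9 share the seed and 14 of their 22 bases. Over the 36 pairs of members, between 1 and 6 bases differ. Counted from 1 at the 5′ end and with let-7a-5p as the reference, let-7c differs by A19G, let-7e-5p by U9G and let-7f-5p by G12A alone. let-7b-5p carries A17G and A19G, let-7d-5p U1A and U16C, and miR-98-5p G11A and A19U. let-7g-5p and let-7i-5p share G12U and U18C, and let-7i-5p also carries A17G and A19U. A probe may therefore read its neighbours in the family, and the 9 values are not independent.

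In RefSeq the guide strands come from 12 loci on GRCh38.p14. let-7a-5p has 3, at chr9:94175962-94175983 (plus strand), chr11:122146568-122146589 (minus) and chr22:46112752-46112773 (plus). let-7f-5p has 2, at chr9:94176353-94176374 (plus) and chrX:53557246-53557267 (minus). The array cannot tell the copies of either apart. On chromosome 9 let-7a, let-7f and let-7d (chr9:94178841-94178862, plus) lie inside the long noncoding gene MIRLET7A1HG. On chromosome 22 let-7a and let-7b (chr22:46113691-46113712, plus) lie inside MIRLET7BHG. miR-98 (chrX:53556299-53556320, minus) and the X-linked copy of let-7f lie inside the span of HUWE1, a ubiquitin ligase gene. let-7c (chr21:16539838-16539859, plus) lies in MIR99AHG, the chromosome 11 copy of let-7a in MIR100HG, and let-7e (chr19:51692793-51692814, plus) in SPACA6. let-7g (chr3:52268336-52268357, minus) lies in WDR82 and let-7i (chr12:62603691-62603712, plus) in MIRLET7IHG. Exon and intron annotation was not used here.

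As a check of the labelled cell type, 5 of 7 epithelial microRNAs fixed as markers were detected on all 3 arrays, among them miR-205-5p and miR-200c-3p. Of 7 blood cell and serum markers, 0 were detected on the control and ethanol arrays and 3 on the acetaldehyde array, where none exceeded a normalized intensity of 150.1. The liver marker miR-122-5p was detected on no array, and of 8 muscle and fibroblast markers 2, 2 and 7 were detected on the control, ethanol and acetaldehyde arrays. Of 2 nerve cell markers, 0, 0 and 1 (miR-124-3p) were. The detection level was 146, 243 and 98.8 intensity units in the same order of arrays, and 775, 347 and 1430 of all probes passed it. The let-7 guide strands stood far above it: their mean spot intensity was at least 5.46 times that level, a value reached by miR-98-5p on the acetaldehyde array, and let-7a-5p reached 102 times on the control array.

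**Figure D1:**
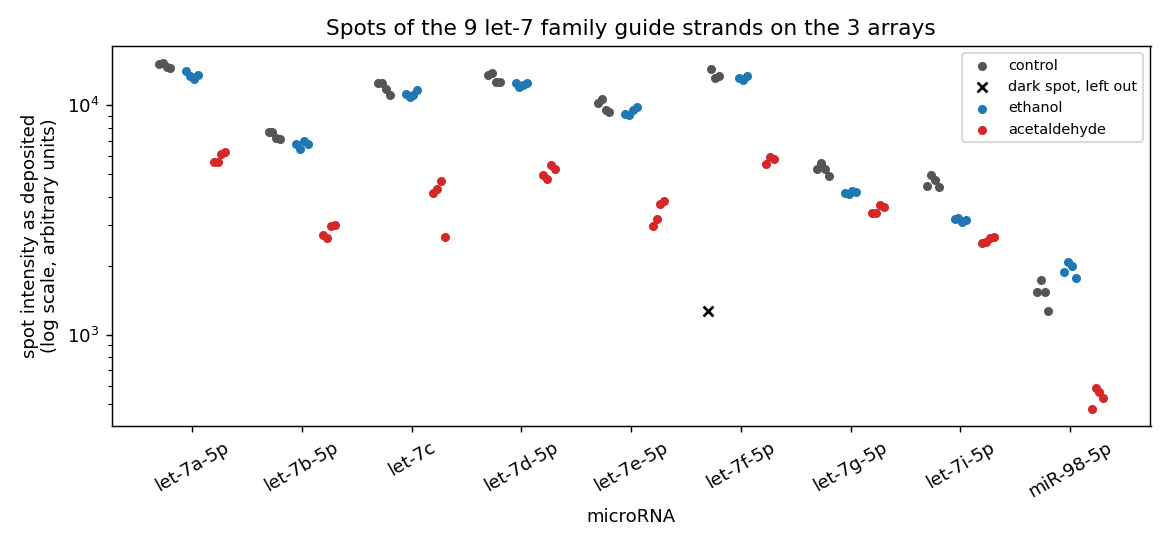
Spot intensity as deposited (log axis, arbitrary units) for each of the 9 guide strands, with 4 spots per array (3 for let-7f-5p) in grey (control), blue (ethanol) and red (acetaldehyde). The red spots lie below the grey and blue spots for every member. The cross marks the dark control spot of let-7f-5p, a position left out on all 3 arrays.

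On the acetaldehyde array all 9 guide strands were below control, with a family median log2 difference of -1.05 ± 0.15 (SD of the median over 4 spot positions, 1 array per group), which is 2.06-fold lower. The members ranged from -1.54 for let-7c to -0.40 for let-7g-5p. On the ethanol array the family was near control, with a median of -0.03 ± 0.06 and a range from -0.26 for let-7i-5p to 0.64 for miR-98-5p. These are normalized values from RNA of whole cultures, in which fewer cells that hold a microRNA and less of it per cell cannot be told apart. The plot of deposited spot intensities, the dark spot aside, also has acetaldehyde lowest for every member, without normalization.

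Among let-7a-5p and the 3 members that differ from it by 1 base, let-7a-5p had a normalized intensity of 14255 with control, 13637 with ethanol and 6908 with acetaldehyde. It held rank 5 of the 2019 probes with control, rank 6 with ethanol and rank 32 with acetaldehyde. The acetaldehyde spots lay apart from the rest, and the control and ethanol spots overlapped after normalization. The log2 difference from control was -1.05 ± 0.10 (n = 4 spot positions) with acetaldehyde and -0.06 ± 0.04 with ethanol.

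let-7c stood at 11381 with control, 11381 with ethanol and 3906 with acetaldehyde. Its control and ethanol values are equal because it held rank 13 on both arrays and quantile normalization sets values by rank. It had the lowest difference of the family with acetaldehyde, -1.54 ± 0.31, or 2.91-fold lower. Its acetaldehyde spots were also the most spread of the family, from 2669 to 4686 intensity units as deposited, and still lay entirely below its lowest control spot of 11143.

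let-7e-5p stood at 9275, 9805 and 3476 on the control, ethanol and acetaldehyde arrays. The acetaldehyde level was 2.67-fold below control (-1.42 ± 0.25), and ethanol differed from control by 0.08 ± 0.14, with overlapping spots.

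let-7f-5p needs 1 spot set aside. Its first control spot read 1266 intensity units, against 13140 to 14362 at the other 3 control spots, while the same position read 13176 with ethanol and 5260 with acetaldehyde. With that position left out on all arrays, let-7f-5p stood at 13433, 13243 and 6803. The difference was -0.98 ± 0.12 (n = 3 spot positions) with acetaldehyde, just short of 2-fold, and -0.02 ± 0.07 with ethanol. With the dark spot kept, these values became -0.02 and 0.99.

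let-7b-5p and let-7d-5p each differ from let-7a-5p by 2 bases. let-7b-5p stood at 6715, 6260 and 2797 on the control, ethanol and acetaldehyde arrays, which is 2.40-fold lower with acetaldehyde (-1.26 ± 0.15). For let-7d-5p the levels were 12555, 12286 and 6156, 2.04-fold lower with acetaldehyde (-1.03 ± 0.15). In both, control and ethanol spots overlapped after normalization, at differences of -0.10 ± 0.10 and -0.03 ± 0.08.

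let-7g-5p and let-7i-5p, the members with G12U and U18C, had the smallest differences. let-7g-5p stood at 4711, 4374 and 3579 on the control, ethanol and acetaldehyde arrays, a difference of -0.40 ± 0.12 with acetaldehyde. let-7i-5p stood at 4158, 3476 and 2594, which is 1.60-fold lower with acetaldehyde (-0.68 ± 0.10). For both, the acetaldehyde spots lay below all control spots. At single spot positions these 2 members lay between -0.81 and -0.27, and the other 7 between -1.97 and -0.87, so the sets did not overlap. The same 2 members carry both substitutions, so the bases cannot be told apart here. This split was chosen after the values were seen, and it was not tested.

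let-7i-5p was also the one let-7-named member whose control and ethanol spots did not overlap after normalization. In the spots as deposited, those of let-7a-5p, let-7b-5p, let-7d-5p and let-7g-5p did not overlap either, so this trait depends on the normalization. The share of all probes without such overlap was not counted. Ethanol was lower by a small amount, -0.26 ± 0.08, and the difference stayed below 0 in all 12 alternative ways of processing, between -0.55 and -0.13. So for let-7i-5p the order was control, then ethanol, then acetaldehyde, each apart from the next by more than the spread of its spots.

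miR-98-5p was the dimmest member and the one whose ethanol spots all stood above its control spots. It stood at 1241 with control, 1936 with ethanol and 553 with acetaldehyde. The deposited spots ran from 1268 to 1735 with control, from 1766 to 2074 with ethanol and from 476 to 584 with acetaldehyde, so no array overlapped another. The difference from control was 0.64 ± 0.10 with ethanol, or 1.56-fold, and -1.17 ± 0.19 with acetaldehyde. The ethanol difference was above 0 in all 12 alternatives, from 0.35 to 0.87. miR-98 and the X-linked copy of let-7f lie in the same host gene, but let-7f-5p, which also has a copy on chromosome 9, differed from control by -0.02 with ethanol.

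**Figure D2:**
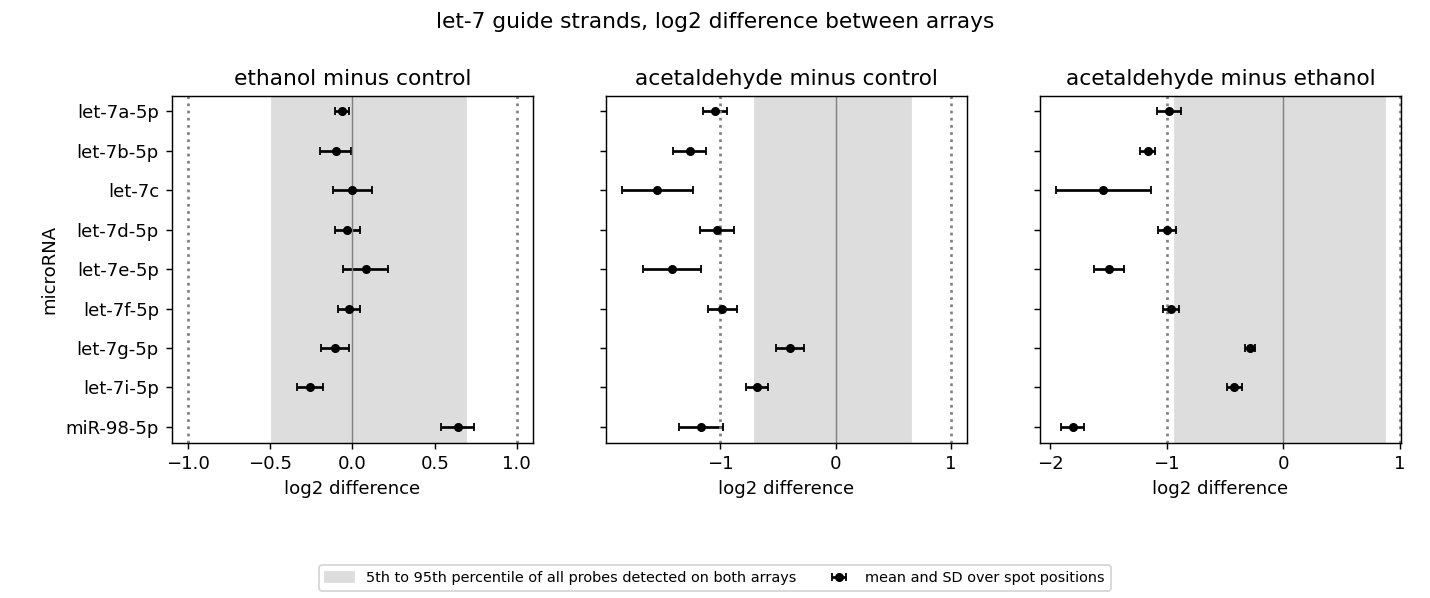
Log2 difference of each guide strand (points, with the SD over spot positions as bars) in the 3 comparisons. Dotted lines mark 2-fold, and the grey band spans the 5th to 95th percentile of all probes detected on both arrays. With acetaldehyde 7 members lie left of the band and let-7g-5p and let-7i-5p inside it, and with ethanol all 9 lie inside it.

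Read against all probes, acetaldehyde left 6 of the 9 members 2-fold or more below control, where 1.68% of the 774 probes detected on both arrays were. Among the 242 brighter probes, those reaching 500 normalized intensity units on either array, the share was 4.55%. let-7d-5p at -1.03 was the member just inside this limit and let-7f-5p at -0.98 the one just outside. All 9 were lower at every spot position, as were 37.5% of the 774 probes. The median of all 774 probes was -0.08. None of the 9 was 2-fold higher, against 0.904% of all probes.

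With ethanol 0 of the 9 members stood 2-fold lower and 0 stood 2-fold higher, where 0% and 0.576% of the 347 probes detected on both arrays were. Within 1.5-fold of control were 8 of the 9, and 89.6% of all probes. Of the 9, 6 had a difference below 0, 2 above 0 and 1 at 0, where the median of all 347 probes was 0. This balance moved with the scaling: 8 lay below 0 without normalization and 1 after median scaling. The median of all 347 probes moved too, to -0.33 and 0.08 in these 2 settings. Lower at every spot position were 4 of the 9, and 31.1% of all probes.

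Set directly against each other, and with the doses differing, the acetaldehyde array lay below the ethanol array for all 9 members, with a median of -0.997 ± 0.12, and at every spot position, as did 46.4% of the 347 probes. miR-98-5p had the lowest value, -1.81 ± 0.10, or 3.50-fold lower, followed by let-7c at -1.54 ± 0.40, let-7e-5p at -1.50 ± 0.13 and let-7b-5p at -1.16 ± 0.06. These 4 were at least 2-fold lower, as were 3.75% of the 347 probes and 4.56% of the 241 brighter ones. let-7a-5p, let-7d-5p and let-7f-5p fell just short, between -0.997 and -0.96, and 7 members were past 2-fold without normalization and with median, 5S ribosomal RNA or cyclic loess scaling, where 3.46% to 4.61% of the 347 probes were. With spike scaling all 9 were, and so were 64.3% of the probes. let-7i-5p and let-7g-5p stood at -0.42 ± 0.06 and -0.29 ± 0.04.

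Acetaldehyde was also lowest, and ethanol above control, in a measure without quantile normalization, the share of the summed microRNA signal above the empty spots. Each share is scaled by the summed signal of its own array. The 9 guide strands held 9.23% of it with control, 10.5% with ethanol and 3.81% with acetaldehyde. The 8 members measured at all 4 positions (let-7f-5p left out) held 7.82% ± 0.19, 8.81% ± 0.28 and 3.17% ± 0.11 in that order (SD over 4 positions). The acetaldehyde share was at most 3.31% at any position and the control share at least 7.68%. Probes differ in how strongly they bind, so these are shares of signal and not of molecules. The summed signal of all probes was 882858 with control, 708962 with ethanol and 869023 with acetaldehyde. That of the 9 members was 81521, 74267 and 33093, so before this division ethanol stood below control.

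The spots of the 8 let-7-named members stand in a row on the array, in column 2 (rows 8 to 22) and column 12 (rows 87 to 101) of each block, and miR-98-5p stands apart, in columns 20 and 30. The acetaldehyde difference was present at every place. The median of the members was -1.13 (7 members, without let-7f-5p) and -1.17 (8 members) at the places of block 1 and -0.93 and -0.94 at those of block 2. Other bright probes within 5 rows and 5 columns had medians of -0.07, -0.12, 0.17 and 0.14 at the same places (21 to 29 probes each). Around the miR-98-5p spots, which stood between -1.36 and -0.93, the medians of nearby probes lay between -0.02 and 0.20.

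The passenger strand is the other arm of each hairpin and is mostly degraded once the guide is loaded. The let-7d precursor shows both arms, in capitals, guide first (RefSeq, GRCh38.p14, chr9:94178834-94178920, plus strand). It is shown because let-7d was the precursor whose passenger strand was detected on all 3 arrays.
MIRLET7D hairpin: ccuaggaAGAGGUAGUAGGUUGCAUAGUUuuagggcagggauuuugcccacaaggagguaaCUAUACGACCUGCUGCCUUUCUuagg

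let-7d-3p stood at 930 with control, 966 with ethanol and 706 with acetaldehyde. Its difference from control was -0.40 ± 0.09 with acetaldehyde, where the guide let-7d-5p stood at -1.03, and 0.06 ± 0.11 with ethanol. Of the 10 passenger strands on the array, 7 were detected with control, 1 with ethanol and 10 with acetaldehyde. Of the 7 detected on both the control and acetaldehyde arrays, 6 were below 0 and none was 2-fold different. Of the 774 probes 1.68% were 2-fold lower and 0.904% 2-fold higher. The median of the 7 passenger strands was -0.31, where that of all 774 probes was also below 0, at -0.08. This filter leaves out let-7e-3p, let-7g-3p and let-7i-3p, detected with acetaldehyde and not with control, which stood at 0.25, 0.52 and 0.28. let-7b-3p (289 with control and 210 with acetaldehyde) was the lowest at -0.46 ± 0.14, and its guide stood at -1.26. The passenger strands other than let-7d-3p were dim, at or below 295 normalized intensity units, where differences read small, so their smaller differences cannot be set against those of the guides.

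Several let-7 precursors are known to share a primary transcript with microRNAs of other families. A set of 5 of these, picked by hand, was measured and detected on all arrays. Their median was 0.49 with acetaldehyde and 0.14 with ethanol. Outside this set, miR-4763-3p, with a precursor within 60 kb of let-7b on chromosome 22, was also detected on all arrays. It stood at -0.28 with acetaldehyde and -0.30 with ethanol. Of the 5, 1 was at least 2-fold higher with acetaldehyde, as were 0.904% of the 774 probes, and none was 2-fold lower, as were 1.68%. miR-99a-5p, an inhibitor of mTOR whose precursor neighbours let-7c in MIR99AHG, stood at 981, 1326 and 2015 on the control, ethanol and acetaldehyde arrays, 1.04 ± 0.32 above control with acetaldehyde, where let-7c stood at -1.54. miR-125b-5p, with a precursor near the chromosome 11 copy of let-7a, stood at 3027, 3341 and 5643 (0.90 ± 0.12 with acetaldehyde), and miR-100-5p of the same stretch at 0.49 ± 0.28.

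Near let-7e on chromosome 19 lie miR-99b and miR-125a. miR-99b-5p differed from control by 0.07 ± 0.10 with acetaldehyde and miR-125a-5p (3579, 3329 and 3341) by -0.10 ± 0.15, with let-7e-5p at -1.42. Beside each of these neighbours the let-7 member had the lower difference, and this was not tested.

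**Figure D3:**
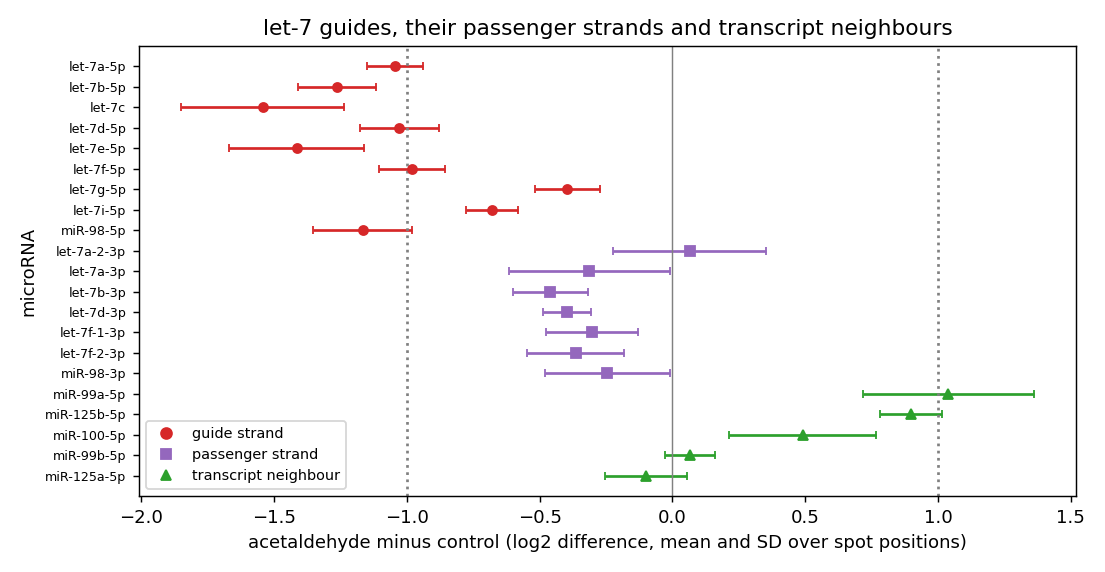
Log2 difference between the acetaldehyde and control arrays (points, bars are the SD over spot positions) for the 9 guide strands, the 7 passenger strands detected on both arrays and 5 transcript neighbours. The guides lie between -1.54 and -0.40, the passenger strands between -0.46 and 0.06 and the neighbours between -0.10 and 1.04. Passenger strands not detected on the control array are not shown.

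The let-7 seed also occurs in 2 other microRNAs on the array, shown here because they share bases 2 to 8 (capitals).
miR-4458: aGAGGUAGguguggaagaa
miR-4500: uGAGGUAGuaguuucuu
miR-4458 was barely detected, at a normalized intensity of 150.4 with control and 101 with acetaldehyde (-0.57 ± 0.13), and was not above the detection level with ethanol. miR-4500 was detected on no array. miR-202-3p, which shares bases 2 to 7, was detected on no array either. The 9 guide strands were thus the only microRNAs with this seed detected on all 3 arrays.

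The profile most like the family median, by Euclidean distance over the 2 log2 differences from control among 338 other probes detected on all 3 arrays, was that of miR-320d. It lay at a distance of 0.19 (-0.10 with ethanol and -0.86 with acetaldehyde). Next came miR-320e at 0.20, miR-1973 at 0.22 (0.14 and -1.18), miR-183-5p at 0.22 (-0.07 and -0.83) and miR-320c at 0.25 (0.00 and -0.79). let-7d-5p, let-7a-5p and let-7f-5p lay nearer, and the members' own median distance was 0.39, against 1.05 for the other probes. The family median comes from these same members, so their nearness to it is partly fixed in advance and is no sign of likeness. The distance rests on 3 arrays with a shared control and is a description only.

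**Figure D4:**
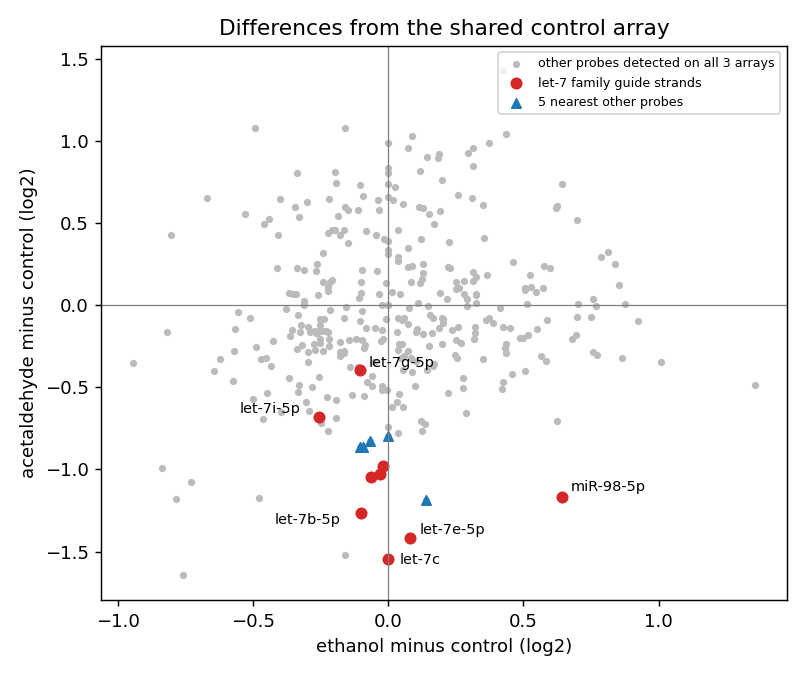
Log2 difference from control with ethanol (x axis) and acetaldehyde (y axis) for the 347 probes detected on all 3 arrays, with the let-7 guide strands in red and the 5 nearest other probes as blue triangles. Both axes share the control array. Most members lie near 0 on the x axis and near or below -1 on the y axis, with miR-98-5p to the right.

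Scaling did not turn the acetaldehyde result: in each of the 12 alternatives all 9 members were below control, with a family median between -2.45 and -1.02 and 6 to 9 members at least 2-fold lower. The share of all 774 probes that was 2-fold lower moved far more, from 1.42% to 51.8%. The lowest family value came from scaling on the spike probes, which moved the median of all 774 probes to -1.02. Relative to the median of all probes the family stood at -1.43 there, and necessarily at the same value in the other settings that shift every probe of an array by one amount (no normalization, 5S ribosomal RNA and median scaling). In the other 8 alternatives it stood between -1.21 and -0.93. In the authors' deposited table, normalized by them, the family median was -1.29 with acetaldehyde and 0.12 with ethanol. For ethanol the sign of the family median depended on the scaling: 6 of the 12 alternatives put it below 0, within a range from -0.10 to 0.31.

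**Figure D5:**
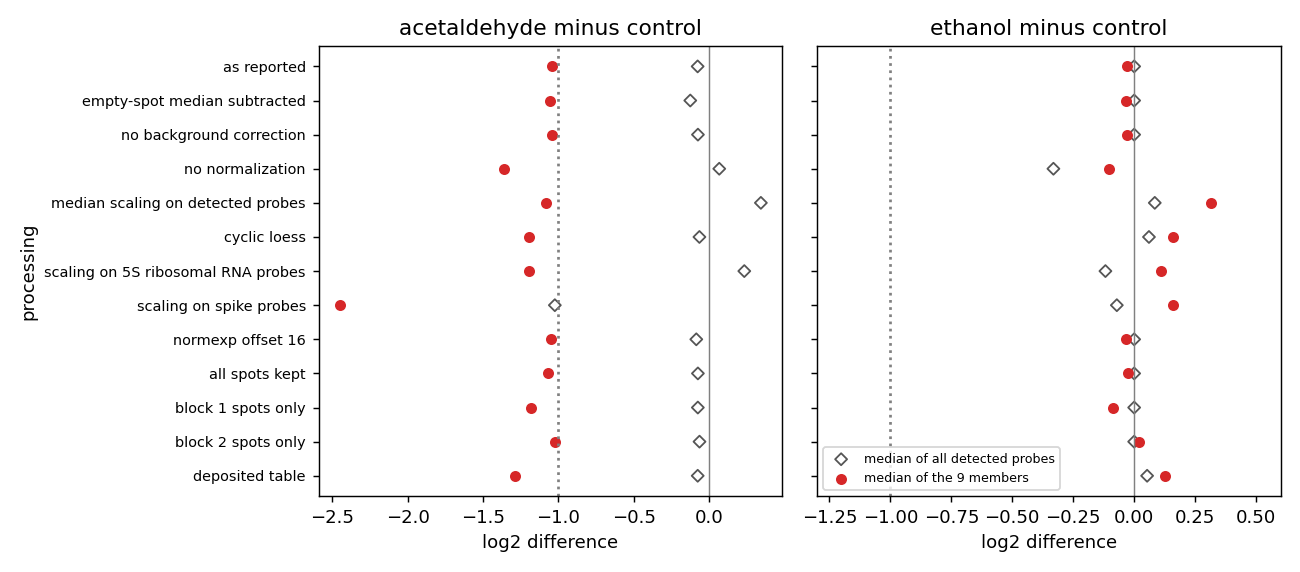
Median log2 difference of the 9 guide strands (red points) and of all probes detected on both arrays (open diamonds) under each way of processing, for acetaldehyde (left) and ethanol (right) against control. With acetaldehyde the family lies left of all probes in each row, and with ethanol the family lies between -0.10 and 0.31.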

How the data were processed

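Total RNA (miRVana kit) was tailed with poly(A), tagged, stained with Cy5 and hybridised by a commercial service, per the labels' protocols. The deposited per-array files hold the median intensity (density) of each spot per the file headers, which name no normalization. The deposited series table holds 1 linear intensity per probe, normalized by the authors; how is not given in the sources used here.

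Background was corrected with normexp (offset 50, all spots) in limma 3.58.1 under R 4.3.3. Values were taken to log2, spots were averaged per probe, and the 2019 microRNA probes were quantile normalized over the 3 arrays. A spot was dark when its signal over the empty-spot median was under 50% of its probe's median, for probes with a median over 300. Such positions were left out on all arrays for that probe. A probe was detected when its mean exceeded the empty-spot median by 3 SDs, and 50% or more of its spots did so too. Normalized intensity is 2 to the power of the mean log2 value. Calls are by size, at least 2-fold, since 1 array per group allows no test, and the number of arrays limits the precision.

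Background correction, spot averaging and quantile normalization were tested on simulated arrays, with randomly chosen probes changed up or down. The dark-spot rule, the detection rule and a one-sided fall of bright probes were not simulated. Named microRNAs were the 9 members, all probes sharing their seed, the 5 nearest profiles, and, of the passenger strands and transcript neighbours, the brightest and those past 2-fold. Further ones were named after their values were seen. The members and lists were chosen with earlier results of these data known. Python 3.11.15, pandas 2.3.3, NumPy 2.4.6 and matplotlib 3.10.9 were used. Alternatives changed the background, the scaling, the offset, the spots used and the source of values.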

Additional observations from a re-analysis of the deposited data

Results flagged for a closer look

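miR-98-5p was at least 1.5-fold above control with ethanol and at least 1.5-fold below it with acetaldehyde, so the exposures lay on opposite sides of the control array. This is not particular to the family: miR-1236-5p did likewise (0.62 and -0.71), and miR-23c lay the other way round (-0.67 and 0.65). The share of all probes was not counted. For miR-98-5p the ethanol difference fell short of 1.5-fold without normalization (0.35) and with scaling on 5S ribosomal RNA probes (0.57). Its acetaldehyde level was lower than its ethanol level by a log2 difference of -1.81. Each group had 1 array, and the difference was not tested.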

How the results depend on the processing

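The family median with acetaldehyde against control kept its direction in all 12 alternatives. It moved by more than its spread to -1.36 without normalization, -2.45 with scaling on spike probes and -1.29 in the deposited table. With ethanol against control it became -0.10 without normalization, 0.31 with median scaling on detected probes, 0.16 with cyclic loess, 0.11 with scaling on 5S ribosomal RNA probes, 0.16 with scaling on spike probes and 0.12 in the deposited table. Acetaldehyde against ethanol gave, in the same order of settings, -1.24, -1.38, -1.35, -1.29, -2.59 and -1.38, and the number of members 2-fold lower was 7, 7, 7, 7, 9 and 7 in place of 4, where 3.46%, 3.75%, 4.61%, 3.46%, 64.3% and 8.36% of the 347 probes were. The causes were not tested. No single-member value that was past 2-fold changed sign. Of the single-member values, 26 of 108 moved by more than their spot SD with acetaldehyde against control, 37 with ethanol and 39 between the exposures. No paired analysis was possible because each group has 1 array. No replicate could be left out for the same reason. Spots of 1 array say nothing about cultures, and the offset of 50 shrinks differences of dim probes: with empty-spot subtraction, 18.7% of the 774 probes were 2-fold lower with acetaldehyde in place of 1.68%, and 6 of the 9 members still were.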
